A study of Mus musculus with 46 samples.

Results

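The response of the mouse colon to imeglimin 6 h after a single oral dose of 600 mg/kg was described from 6 RNA-seq libraries, 3 of imeglimin colons and 3 of control colons, chosen by their labels out of the 46 samples of the study. Imeglimin is a tetrahydrotriazine used in type 2 diabetes and a structural relative of the biguanide metformin. The imeglimin group held colons of male C57BL/6J mice taken 6 h after 600 mg/kg imeglimin, and the control group held colons of male C57BL/6J mice labelled as control at the same time of 6 h. A further group of 3 colons, from the same strain and sex, was taken 6 h after 600 mg/kg metformin and served as the matched comparison between the compounds. The labels give neither the age of the mice, nor the vehicle of the controls, nor whether the replicates of a group are separate animals, so that each p-value reflects only how these samples spread, which may be technical. Each group holds 1 library of each of 3 labelled batches, and the batch number equals the replicate number.

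Cells that lack amino acids, that misfold proteins or whose mitochondria fail phosphorylate the translation factor eIF2 alpha, which slows protein synthesis while the transcription factor ATF4 is made. ATF4 then turns on amino acid transport and synthesis, tRNA charging and secreted stress signals, a program named the integrated stress response. Oral metformin reaches far higher concentrations in the gut wall than in the blood, and metformin and imeglimin both act on mitochondrial respiration. The colon epithelium, which renews itself from crypt stem cells, answers injury with ligands of the EGF receptor.

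Read counts were compared with the edgeR quasi-likelihood test in 1 fit of the 9 libraries, with Benjamini-Hochberg adjustment over the 18294 genes tested, and a gene is called changed at an adjusted p below 0.05. CPM values, scaled by library total and TMM factor, are given in the order of replicates 1 to 3, and log2 fold changes are imeglimin minus control ± SE. The libraries held 31606797 to 38795175 counts. The labelled tissue carried colon transcripts, with the colonocyte carbonic anhydrase Car1 at 8141 to 13360 CPM after imeglimin and 8845 to 11120 CPM in controls. The sources used here do not give whether reads were counted by strand. Exons of 30 of the 131 genes below that are in the GENCODE M21 annotation overlap another gene, 29 of them on the opposite strand (among them Ankrd37, Atf5, Gadd45a, Hspa1a, Iars2, Irf1, Phlda1 and Txnip) and Aars with Exosc6 on the same strand, so their reads may be shared. The distal colon genes Hoxd12 and Hoxd13 had at most 8 reads in any library. Hoxa13 and Hoxb13, the tested distal colon genes, summed to 6.57, 1.96 and 1.45 CPM after imeglimin and 3.02, 2.77 and 8.27 CPM in controls. After metformin they summed to 15.04, 0.207 and 11.15 CPM, and neither was called in either comparison. Whether the sampled stretch of colon differed between libraries was not tested.

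After imeglimin, 6085 of 18294 genes changed (33.3%), 3314 of them higher (18.1%) and 2771 lower (15.1%). Of these, 1226 moved by more than 1 log2 unit, 555 higher and 671 lower. In 6020 of the 6085 genes the 3 imeglimin libraries did not overlap the 3 controls, and in 6055 the difference had the same direction within each of the 3 batches. Over all 18294 genes tested these counts were 9341 (51.1%) and 11407 (62.4%). The first principal component of the 6 libraries held 53.9% of the variance and placed the imeglimin libraries at 27.7 to 55.7 and the controls at -49.6 to -38.5. The count of changed genes depended most on imeglimin 2, without which 4004 genes passed. The number of lower genes was 1719 without imeglimin 2 and 1838 without imeglimin 3. The median log2 fold change over all genes tested was -0.03, against which each list of genes below is read. Counts of higher and lower genes in each list are read against the 18.1% and 15.1% of all genes. For every gene given below as changed against control the libraries of the groups did not overlap, and its call held in each other setting run, unless its sentence says otherwise. The calls between imeglimin and metformin held less often, as given with them.

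**Figure D1:**
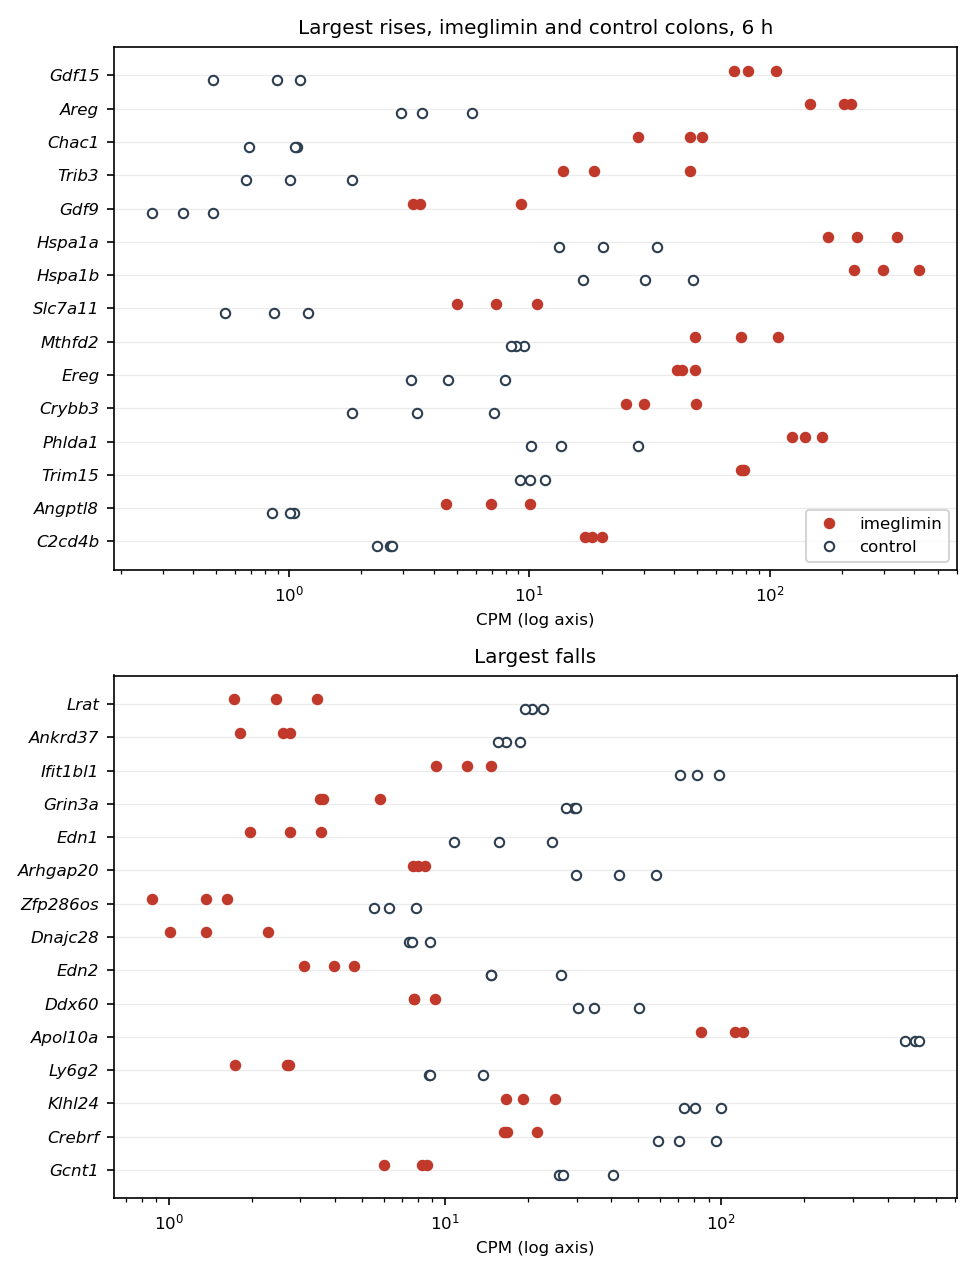
CPM (log axis) of the 15 largest rises (upper panel) and the 15 largest falls (lower panel) by the naming rule, 1 row a gene, with 1 point for each of 3 imeglimin libraries (filled) and 3 control libraries (open). Within each row the filled and the open points are fully apart, and the rises run from Gdf15 at the top (log2 fold change 6.69) to C2cd4b (2.85), the falls from Lrat (-3.04) to Gcnt1 (-2.03).

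Promoter sequences of RefSeq (build GRCm38.p6, 250 bases before the start site) were read for genes on which the stress, antioxidant, interferon and glucose results below turn, because they hold the letters of known regulatory elements. Of the genes tested, 13081 had at least 1 promoter in the table. The windows of 60 bases are written 5′ to 3′ along the gene, in lower case, with capitals for the letters that match a motif on either strand. The first set holds the C/EBP-ATF element TGATGNAA, which ATF4 partners bind, and a cAMP response element TGACGTCA.
Chac1 (chr2:119351023-119351082, plus strand): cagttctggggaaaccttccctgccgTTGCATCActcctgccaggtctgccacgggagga
Atf3 (chr1:191183410-191183469, minus strand): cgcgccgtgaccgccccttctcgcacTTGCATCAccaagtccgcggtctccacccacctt
Asns (chr6:7693210-7693269, minus strand): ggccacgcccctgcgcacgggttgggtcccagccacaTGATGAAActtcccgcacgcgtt
Aars (chr8:111033704-111033763, plus strand): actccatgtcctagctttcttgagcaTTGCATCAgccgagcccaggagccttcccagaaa
Maff (chr15:79347460-79347519, plus strand): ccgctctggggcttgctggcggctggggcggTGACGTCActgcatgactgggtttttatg
The second set holds the ER stress element, CCAAT and CCACG with 9 free bases between them, bound by ATF6, and the antioxidant response element, TGAC and GCA with 3 free bases between them, bound by NRF2.
Hspa5 (chr2:34772005-34772064, plus strand): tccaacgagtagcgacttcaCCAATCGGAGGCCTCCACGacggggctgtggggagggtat
Creld2 (chr15:88819500-88819559, plus strand): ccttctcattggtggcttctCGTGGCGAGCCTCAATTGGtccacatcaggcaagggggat
Txnrd1 (chr10:82859088-82859147, plus strand): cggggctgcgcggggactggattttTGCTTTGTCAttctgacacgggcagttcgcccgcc
The third set holds the interferon-stimulated response element, TTTC repeated after 2 free bases, and, in Txnip, a carbohydrate response element, CACGNG repeated after 5 free bases, which MondoA and its relatives bind.
Ifit1bl1 (chr19:34599428-34599487, minus strand): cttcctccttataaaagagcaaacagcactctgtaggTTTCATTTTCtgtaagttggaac
Ddx60 (chr8:61928027-61928086, plus strand): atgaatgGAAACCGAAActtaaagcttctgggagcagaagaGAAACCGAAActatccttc
Txnip (chr3:96557851-96557910, plus strand): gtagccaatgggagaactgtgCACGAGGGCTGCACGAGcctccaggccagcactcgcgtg
All shares of a motif are of genes with a promoter in the table. Of the genes that moved by more than 1 log2 unit, 330 risers and 478 fallers had one. The C/EBP-ATF element stood in 2.57% of all genes, in 6.67% of these risers and in 2.09% of these fallers. For the cAMP response element these shares were 2.8% of all genes, 5.76% of the risers and 2.3% of the fallers. The antioxidant response element stood in 2.66% of all genes, 4.24% of the risers and 2.72% of the fallers. Of 23 NRF2 and glutathione genes with a promoter only 1, Txnrd1, held it. The ER stress element was rare, at 0.153% of all genes, but stood in 9 of the 23 unfolded protein response genes with a promoter. Of these 9 genes 5 rose, as did 6 of the 14 without it. With the C/EBP-ATF element 1 of 2 regulators of the stress response rose and 1 fell, against 8 of 9 higher without it. Of effectors 2 of 2 rose with it and 3 of 6 without it, and of cytosolic tRNA synthetases 3 of 3 and 7 of 9. Of serine, folate, asparagine and proline synthesis genes 2 of 3 rose with it and 9 of 13 without it. The interferon-stimulated response element stood in 3.38% of all genes, in 3.33% of the risers and 4.18% of the fallers, and in 18 of 29 interferon-induced genes with a promoter. Of those 18 genes 11 fell, and of the 11 without these letters 7 fell and 2 rose. The carbohydrate response element stood in 0.0688% of all genes. A match is a description of letters and no match says only that these letters are not in this window.

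Regulators of the integrated stress response rose as a group. Of 14 transcription factors and regulators 12 rose, against 18.1% of all genes, and their median log2 fold change was 1.52. Atf4, the central factor of the program, had 342, 506 and 438 CPM after imeglimin, against 131, 157 and 151 CPM in controls. All imeglimin libraries lay well above the controls, imeglimin 2 the highest, and the log2 fold change was 1.55 ± 0.14 (edgeR adjusted p = 4.64e-05). Its partner Atf5, which guards mitochondrial proteins, had 61.3, 122 and 94.7 CPM after imeglimin, against 18.1, 23.04 and 20.8 CPM in controls (2.17 ± 0.21, edgeR adjusted p = 6.46e-05). Trib3, a pseudokinase that ATF4 induces and that restrains it in turn, had 13.8, 46.5 and 18.6 CPM after imeglimin, against 1.82, 0.662 and 1.01 CPM in controls. Imeglimin 2 stood highest by far, the controls did not overlap the treated libraries, and the log2 fold change was 4.49 ± 0.48 (edgeR adjusted p = 0.000113), with 2.88, 6.02 and 4.12 within batches 1, 2 and 3. Ddit3 (CHOP), which steers stressed cells toward death, had 39.03, 66.5 and 48.4 CPM after imeglimin, against 12.7, 16.6 and 15.8 CPM in controls (1.77 ± 0.21, edgeR adjusted p = 0.000168). Atf3, a repressor induced by ATF4, had 38.5, 67.5 and 32.1 CPM after imeglimin, against 8.78, 18.1 and 21.1 CPM in controls, with a log2 difference of 1.52 ± 0.33 (edgeR adjusted p = 0.00492). The spread within both groups of Atf3 was wide, yet the lowest imeglimin library was above the highest control. The 1 member that fell, Nupr1, a small chromatin protein named here after its value was seen, stood at -0.49 (edgeR adjusted p = 0.0486) and missed the threshold with no filter, without any 1 control, without imeglimin 1 or 3 and without metformin 1. Of the 6 genes for the kinases that start the response and the mitochondrial relay to them 1 passed, the double-stranded RNA sensor Eif2ak2 (PKR), with 40.3, 34.4 and 40.2 CPM after imeglimin, against 61.7, 54.7 and 41.5 CPM in controls. This difference of -0.46 ± 0.15 (edgeR adjusted p = 0.0376) was lost with the replicate block (edgeR adjusted p = 0.068) and without imeglimin 1, 2 or 3 or control 1 or 2.

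The effectors of the same program included the largest rise by the naming rule, that of Gdf15. Gdf15, a hormone that lowers food intake through the hindbrain, had 71.02, 106 and 81.05 CPM after imeglimin, against 0.485, 1.11 and 0.894 CPM in controls. Its log2 fold change was 6.69 ± 0.32 (edgeR adjusted p = 2.18e-06), with 7.04, 6.505 and 6.41 within batches 1, 2 and 3. Chac1, which degrades glutathione, had 28.3, 52.5 and 46.8 CPM after imeglimin, against 0.684, 1.08 and 1.06 CPM in controls. The log2 fold change of Chac1 was 5.48 ± 0.29 (edgeR adjusted p = 2.55e-06). For Gdf15 and Chac1 the controls lay near 1 CPM and the highest of them stood far below the lowest imeglimin library. Gadd45a, a brake on the cell cycle after damage, had 161, 212 and 209 CPM after imeglimin, against 29.4, 25.00 and 28.3 CPM in controls, with a log2 difference of 2.81 ± 0.16 (edgeR adjusted p = 2.99e-06). Of 11 effectors tested 7 rose and 1 fell, with a median of 0.74. The gene of the hormone FGF21, which liver and muscle release in the same response, had 2 reads in imeglimin 3 and 0 in each other library, so that it was not tested.

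Most genes of serine, folate, asparagine and proline synthesis rose, while amino acid transporters were divided. Mthfd2, the folate enzyme of mitochondria, had 49.00, 108 and 75.8 CPM after imeglimin, against 9.49, 8.84 and 8.36 CPM in controls (3.13 ± 0.24, edgeR adjusted p = 1.9e-05). Asns, which makes asparagine, had 83.7, 157 and 111 CPM after imeglimin, against 27.7, 25.4 and 26.4 CPM in controls, a log2 difference of 2.14 ± 0.20 (edgeR adjusted p = 4.85e-05). In both genes imeglimin 2 was the highest library and imeglimin 1 the lowest of the treated ones, and the controls lay close together. Aldh18a1, the first enzyme of proline synthesis, rose by 0.92 ± 0.10 (edgeR adjusted p = 0.000151). Of 19 genes of serine, folate, asparagine and proline synthesis 12 rose and 1 fell, with a median of 0.37. Among transporters, Slc7a11, which imports cystine, had 5.02, 10.7 and 7.28 CPM after imeglimin, against 1.198, 0.541 and 0.87 CPM in controls (3.13 ± 0.33, edgeR adjusted p = 0.000109). Slc3a2, the shared heavy chain of several of these transporters, had 178, 250.2 and 224 CPM after imeglimin, against 53.5, 49.7 and 53.6 CPM in controls (2.06 ± 0.14, edgeR adjusted p = 1.17e-05), and its partner Slc7a5, which carries large neutral amino acids, had 41.5, 62.4 and 46.8 CPM after imeglimin, against 14.4, 15.6 and 13.4 CPM in controls (1.80 ± 0.15, edgeR adjusted p = 3.09e-05). The controls of Slc3a2 and Slc7a5 spanned a narrow band that no imeglimin library entered. Slc7a1, which imports arginine and lysine, rose by 1.56 ± 0.13 (edgeR adjusted p = 3.43e-05). The 26 amino acid transporters did not move as 1 block, since 7 rose and 5 fell, with a median of -0.12. The shares of all genes were 18.1% higher and 15.1% lower.

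Of 20 cytosolic aminoacyl-tRNA synthetases, which load tRNAs with amino acids, 18 rose, with a median of 0.72. The 1 that fell, Qars, the glutamine enzyme, named here after its value was seen, stood at -0.29 (edgeR adjusted p = 0.0294) and was not called without imeglimin 1 or 3 or control 1 or 2. Aars, for alanine, had 222, 344 and 282 CPM after imeglimin, against 86.5, 92.3 and 76.6 CPM in controls (1.73 ± 0.15, edgeR adjusted p = 3.55e-05). Yars, for tyrosine, had 90.97, 118 and 101 CPM after imeglimin, against 31.3, 36.7 and 33.8 CPM in controls (1.60 ± 0.13, edgeR adjusted p = 2.75e-05). Cars, for cysteine, rose by 1.34 ± 0.13 (edgeR adjusted p = 6.73e-05). In Aars and Yars the lowest imeglimin library stood far above the highest control, and imeglimin 2 was the highest. Their mitochondrial counterparts were divided, with 5 of 17 higher and 4 lower and a median of 0.23. Yars2 rose by 0.92 ± 0.14 (edgeR adjusted p = 0.000844), while Iars2, which charges the isoleucine tRNA of mitochondria, fell (log2 fold change -0.63 ± 0.11, edgeR adjusted p = 0.00171).

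**Figure D2:**
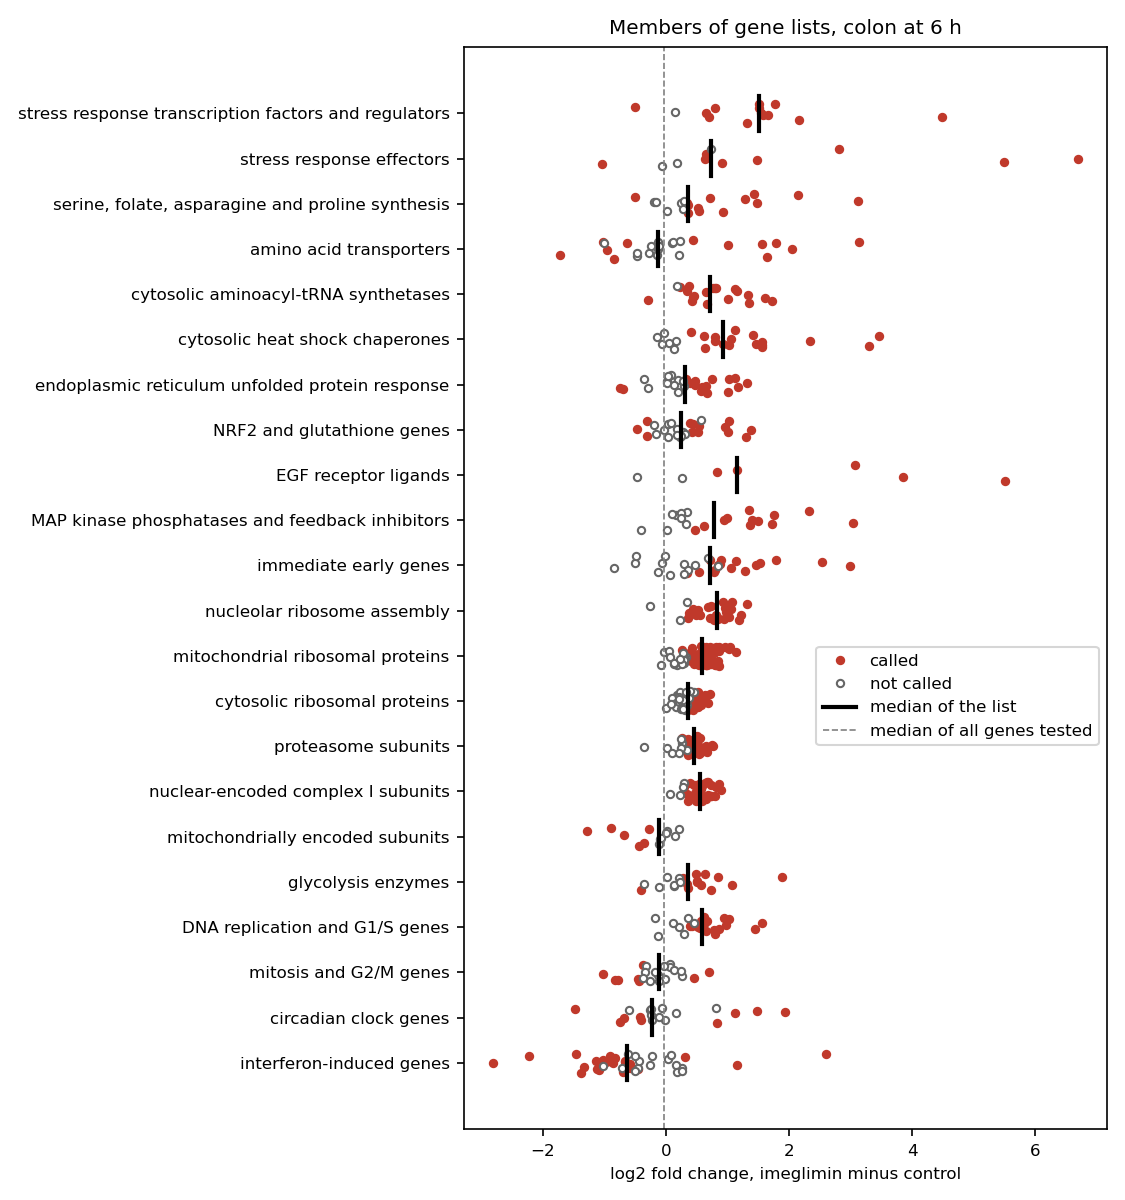
Log2 fold change (imeglimin minus control) of each tested member of 22 gene lists, 1 row a list, filled where the gene was called by edgeR and open where it was not, with a bar at the list's median and a dashed line at the median of all genes tested (-0.03). Stress regulators (median 1.52), heat shock chaperones (0.93) and nucleolar ribosome assembly (0.82) lie to the right, and interferon-induced genes (-0.63) to the left.

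Most chaperones of the cytosol rose. Of 23 heat shock chaperones and cochaperones 17 rose, with a median of 0.93. The inducible HSP70 genes Hspa1a and Hspa1b are near-identical copies whose reads cannot be assigned with certainty, and both behaved alike. Hspa1a had 339, 175 and 229.9 CPM after imeglimin, against 13.3, 20.2 and 33.9 CPM in controls (3.46 ± 0.44, edgeR adjusted p = 0.00029), and Hspa1b had 417, 223 and 295 CPM after imeglimin, against 16.8, 30.2 and 48.1 CPM in controls (3.30 ± 0.43, edgeR adjusted p = 0.000352). Imeglimin 1, the lowest treated library for Atf4, Asns and Mthfd2, was the highest for both. Stip1, which links HSP70 to HSP90, had 152, 173 and 171 CPM after imeglimin, against 51.7, 60.3 and 56.7 CPM in controls (1.56 ± 0.10, edgeR adjusted p = 5.8e-06), and the HSP40 cochaperone Dnaja1 had 261, 270.1 and 290 CPM after imeglimin, against 88.7, 85.1 and 103 CPM in controls (1.57 ± 0.10, edgeR adjusted p = 8.09e-06). Both were tight within each group. Of 14 mitochondrial chaperones and proteases 7 rose, with a median of 0.26. The pair Hspd1 (HSP60) and Hspe1 (HSP10), which form the folding chamber of the matrix, rose by 0.98 ± 0.11 and 1.41 ± 0.13 (edgeR adjusted p = 0.000131 and 4.54e-05).

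In the endoplasmic reticulum 14 of 28 unfolded protein response genes rose and 2 fell, with a median of 0.31. Creld2, a secreted folding helper, had 42.4, 49.2 and 49.7 CPM after imeglimin, against 19.4, 19.04 and 18.2 CPM in controls (1.32 ± 0.11, edgeR adjusted p = 2.32e-05). Hspa5 (BiP), the master chaperone of that compartment, had 539, 631 and 585 CPM after imeglimin, against 325, 258 and 280.1 CPM in controls (1.02 ± 0.12, edgeR adjusted p = 0.000203), and its nucleotide exchange factor Hyou1 rose by 1.01 ± 0.10 (edgeR adjusted p = 5.95e-05). The lowest imeglimin library of Hspa5 was well above the highest control. Of 27 genes of the antioxidant factor NRF2 and of glutathione metabolism 10 rose and 3 fell, with a median of 0.24. The count lower was 1 with the replicate block, without any 1 imeglimin library and without control 1 or 2. Txnrd1, the thioredoxin reductase, had 419, 494 and 495 CPM after imeglimin, against 247, 239.5 and 207 CPM in controls (1.02 ± 0.11, edgeR adjusted p = 0.000133). Osgin1, an oxidant-induced growth inhibitor, rose by 1.31 ± 0.12 and Gpx2, the gut glutathione peroxidase, by 0.95 ± 0.13 (edgeR adjusted p = 6.01e-05 and 0.00037).

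Ligands of the EGF receptor rose while 2 of its relatives fell. Areg (amphiregulin) had 148, 219 and 203 CPM after imeglimin, against 3.59, 2.92 and 5.802 CPM in controls. Its log2 fold change was 5.52 ± 0.27 (edgeR adjusted p = 2.36e-06), with 5.34, 6.20 and 5.12 within batches 1, 2 and 3. Ereg (epiregulin) had 41.2, 43.1 and 48.9 CPM after imeglimin, against 4.59, 3.22 and 7.95 CPM in controls (3.06 ± 0.27, edgeR adjusted p = 4.25e-05). For both ligands the treated libraries were alike and the controls were all low. Epgn (epigen) was scarce, with 0.962, 0.978 and 0.954 CPM after imeglimin, against 0.114, 0 and 0.0725 CPM in controls, and rose by 3.85 ± 0.80 (edgeR adjusted p = 0.00401). Hbegf, a membrane-anchored ligand, had 24.6, 31.4 and 26.7 CPM after imeglimin, against 11.8, 7.79 and 17.4 CPM in controls (1.16 ± 0.23, edgeR adjusted p = 0.00356) and Btc (betacellulin) rose by 0.83 ± 0.15 (edgeR adjusted p = 0.00205). The other two ligands did not pass, Tgfa at 0.26 ± 0.10 (edgeR adjusted p = 0.0645) and Egf at -0.47 ± 0.17 (edgeR adjusted p = 0.0542), though DESeq2 called both (adjusted p = 0.0436 and 0.0412), and edgeR called Tgfa without control 1 and Egf without metformin 1 or 2 or in a fit of only the 2 groups. In all 5 of 7 ligands rose, with a median of 1.16.

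Of the receptors, Erbb2 and Erbb3 fell. Erbb2, the partner that binds no ligand itself, had 61.8, 59.8 and 72.5 CPM after imeglimin, against 228, 262 and 241 CPM in controls. Its log2 fold change was -1.91 ± 0.10 (edgeR adjusted p = 2.57e-06), with -1.88, -2.13 and -1.73 within batches 1, 2 and 3. Erbb3, the kinase-poor receptor of neuregulins, had 177, 146 and 168 CPM after imeglimin, against 493, 426 and 478 CPM in controls (-1.51 ± 0.12, edgeR adjusted p = 1.9e-05). In both genes the 3 imeglimin libraries lay far below every control. Egfr itself had 28.00, 25.3 and 26.9 CPM after imeglimin, against 32.6, 27.9 and 30.5 CPM in controls, a difference of -0.18 ± 0.12 (edgeR adjusted p = 0.256) that did not pass. Rhbdf2, a rhomboid relative that helps the sheddase ADAM17 release ligands, rose by 0.64 ± 0.10 (edgeR adjusted p = 0.000861), while Adam17 stood at 0.14 ± 0.10 (edgeR adjusted p = 0.284) and Adam10 at -0.11 ± 0.14 (edgeR adjusted p = 0.594). The receptor Erbb4 had at most 4 reads in any library and was not tested.

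**Figure D3:**
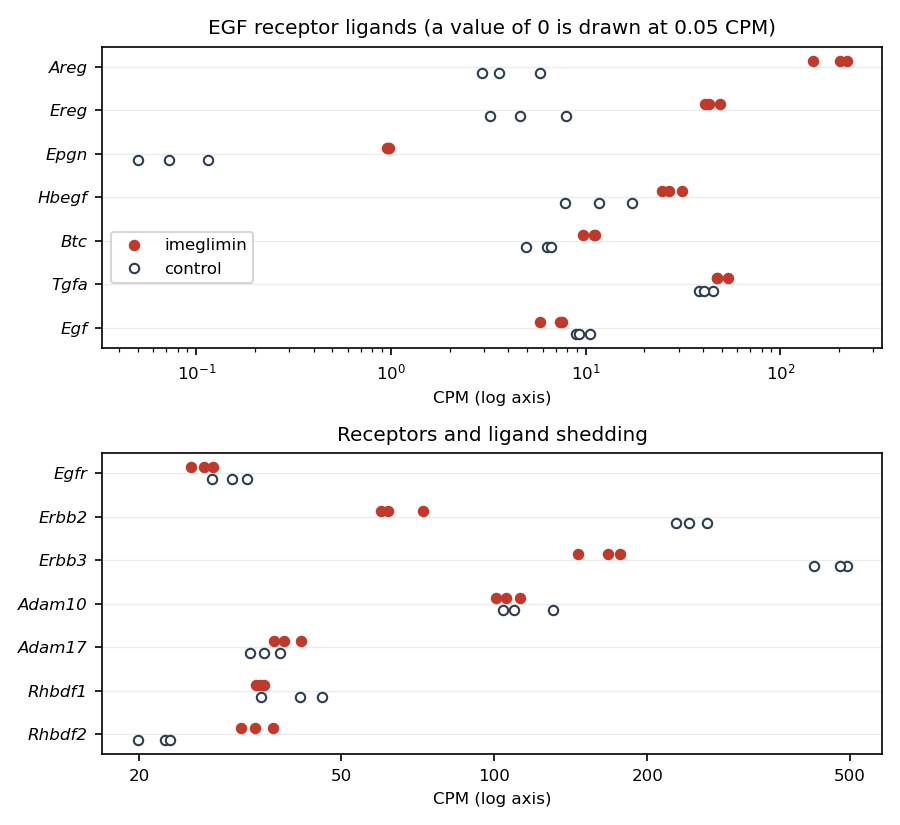
CPM (log axis) of the 7 EGF receptor ligands (upper panel) and of 7 receptors and shedding genes (lower panel) in each of the 3 imeglimin libraries (filled) and 3 control libraries (open), a value of 0 being drawn at 0.05 CPM. Areg, Ereg, Epgn, Hbegf and Btc lie higher after imeglimin, and Erbb2 and Erbb3 lie lower.

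Many immediate early genes and inhibitors of the MAP kinase cascade were higher as well. Whether receptor signalling had a part in this was not tested. Of 29 immediate early genes 16 rose, with a median of 0.72, and of 20 phosphatases and feedback inhibitors of the cascade 12 rose, with a median of 0.79. Phlda1, a brake on receptor signalling, had 124, 165 and 141 CPM after imeglimin, against 10.2, 13.6 and 28.2 CPM in controls (3.04 ± 0.30, edgeR adjusted p = 7.1e-05). Maff, a small bZIP factor, had 47.2, 69.2 and 52.8 CPM after imeglimin, against 8.07, 7.07 and 13.9 CPM in controls (2.53 ± 0.26, edgeR adjusted p = 8.38e-05). Dusp6, the phosphatase of ERK, had 93.03, 80.6 and 102 CPM after imeglimin, against 26.4, 24.97 and 32.2 CPM in controls (1.72 ± 0.13, edgeR adjusted p = 1.73e-05). Control 3 was the highest control in all 3 genes and stayed below each imeglimin library. Spry2, an inhibitor upstream of the cascade, rose by 1.36 ± 0.15 and Dusp1, a phosphatase of stress kinases, by 0.95 ± 0.19 (edgeR adjusted p = 0.00014 and 0.00285). Ier2 and Ier3, early response genes, rose by 1.14 ± 0.13 and 1.52 ± 0.16 (edgeR adjusted p = 0.000151 and 0.000106).

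Interferon-induced genes, the antiviral program of the epithelium, were lower after imeglimin: of 42 tested 24 fell, against 15.1% of all genes, and 3 rose, with a median of -0.63. Ifit1bl1, of the family that binds foreign RNA, had 14.7, 9.26 and 12.02 CPM after imeglimin, against 98.03, 82.00 and 70.7 CPM in controls. Its log2 fold change was -2.80 ± 0.21 (edgeR adjusted p = 1.75e-05), with -2.74, -3.14 and -2.55 within batches 1, 2 and 3. Ddx60, a helicase of RNA sensing, had 7.75, 9.203 and 7.74 CPM after imeglimin, against 30.4, 50.5 and 34.7 CPM in controls (-2.23 ± 0.25, edgeR adjusted p = 0.000147). Control 2 was the highest control for Ddx60, and the summed level of the 42 genes was highest there too, with 663 to 733 CPM in the imeglimin libraries against 918, 1165 and 864 CPM in controls 1, 2 and 3. The part of control 2 in these falls was not tested beyond leaving it out, and the count of lower genes ran from 16 to 25 over the fits that left out 1 library of either group. Parp14, an ADP-ribosyl transferase, had 44.1, 35.4 and 38.3 CPM after imeglimin, against 83.3, 90.4 and 76.9 CPM in controls (-1.09 ± 0.12, edgeR adjusted p = 0.000134). The GTPase gene Mx1 went against its list, with 23.1, 26.3 and 19.6 CPM after imeglimin, against 3.51, 4.301 and 3.602 CPM in controls. All treated libraries of Mx1 lay above all controls, with a log2 difference of 2.60 ± 0.17 (edgeR adjusted p = 6.24e-06).

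Upstream of these genes, Irf1, a transcription factor that keeps many of them on, had 55.5, 36.8 and 46.8 CPM after imeglimin, against 152, 132 and 129 CPM in controls (-1.57 ± 0.14, edgeR adjusted p = 4.47e-05). Socs1, which blocks signalling from interferon receptors, had 4.302, 7.002 and 5.21 CPM after imeglimin, against 1.25, 1.96 and 1.98 CPM in controls (1.66 ± 0.26, edgeR adjusted p = 0.00096). Mavs, the adaptor of RNA sensors on mitochondria, had 103, 88.6 and 106 CPM after imeglimin, against 52.9, 57.8 and 57.1 CPM in controls (0.83 ± 0.09, edgeR adjusted p = 0.00014). Irf1 was lower in all 3 imeglimin libraries, and Socs1 and Mavs were higher in all 3. Of 16 interferon signalling genes 6 rose and 4 fell. Tap1, which carries peptides to MHC class I, fell (log2 fold change -0.96 ± 0.18, edgeR adjusted p = 0.0022), the 1 called gene among 11 of that pathway, of which 1 was called higher with the replicate block, 2 by DESeq2 or without imeglimin 1 and 3 in the fit of only the 2 groups, and 2 lower without control 1. The apolipoprotein L gene Apol10a, outside the lists, had 120.3, 84.3 and 112 CPM after imeglimin, against 502, 519 and 462 CPM in controls (-2.22 ± 0.21, edgeR adjusted p = 6.32e-05).

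**Figure D4:**
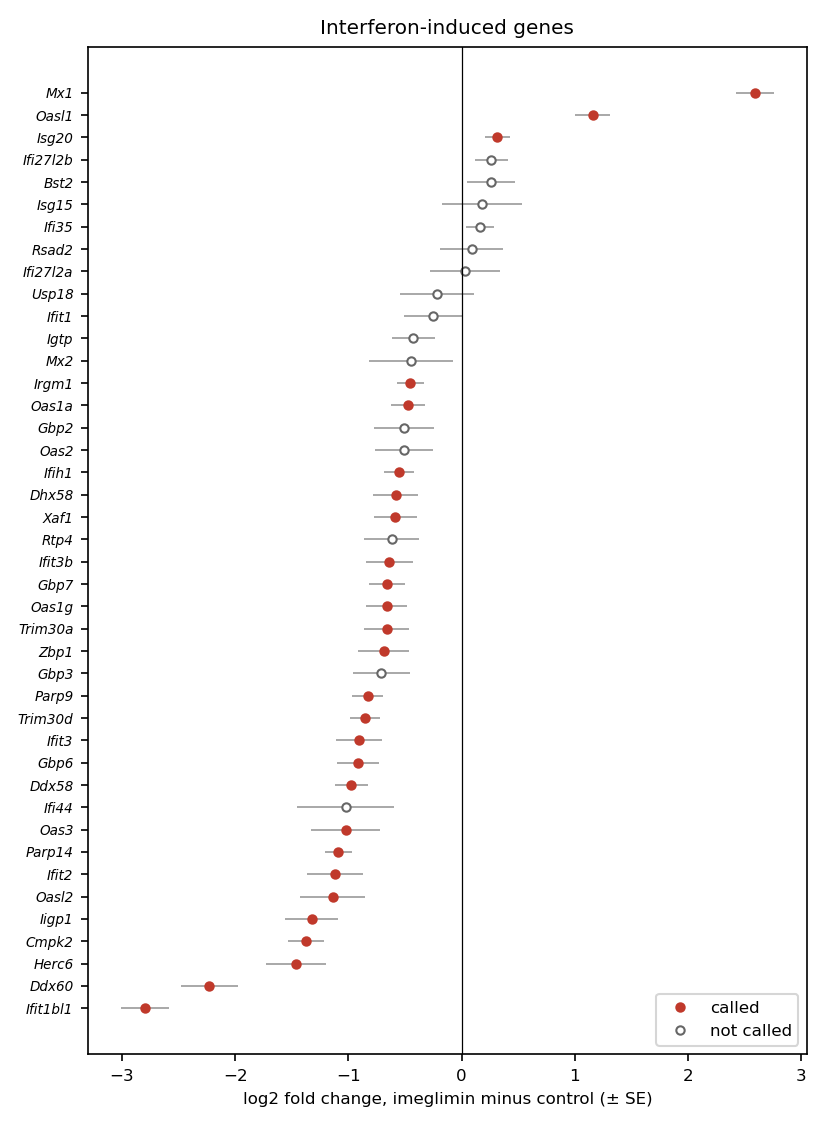
Log2 fold change (imeglimin minus control, bars ± SE) of 42 interferon-induced genes in order of size, filled where called by edgeR and open where not. Most genes lie left of 0, with Ifit1bl1 (-2.80) and Ddx60 (-2.23) lowest, and Mx1 (2.60) highest.

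Nuclear genes for respiration rose by small, even amounts, whereas transcripts of the mitochondrial genome did not. Of 36 nuclear complex I genes 32 rose (21 without imeglimin 2), with a median of 0.55, and of 35 genes of complexes II to V 32 rose (18 without imeglimin 2), with a median of 0.52. Ndufb10, of complex I, had 164, 212 and 221 CPM after imeglimin, against 105, 117 and 108 CPM in controls (0.86 ± 0.12, edgeR adjusted p = 0.000501). Cycs, the electron carrier cytochrome c, had 326, 421 and 366 CPM after imeglimin, against 214, 206 and 175 CPM in controls (0.90 ± 0.11, edgeR adjusted p = 0.000285). In both genes imeglimin 1 was the lowest treated library and still above each control. Of 13 protein genes of the mitochondrial genome 6 fell (3 without imeglimin 3), with a median of -0.11. ND5, of complex I, had 1761, 1708 and 2014 CPM after imeglimin, against 5471, 3919 and 3899 CPM in controls (-1.28 ± 0.14, edgeR adjusted p = 0.00014). ND6, on the opposite strand next to ND5, had 78.04, 109.9 and 91.9 CPM after imeglimin, against 229.9, 142 and 148 CPM in controls (-0.89 ± 0.18, edgeR adjusted p = 0.00333), and ND4L fell (log2 fold change -0.67 ± 0.11, edgeR adjusted p = 0.00139). Control 1 was the highest library for ND5, ND6 and ND4L. Reads of the neighbours ND5 and ND6 and of ND4L and ND4 may be shared, since the use of strand in counting is not given.

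Most genes that build ribosomes rose. Of 78 mitochondrial ribosomal proteins 64 rose, with a median of 0.59, and of 28 nucleolar assembly factors 25 rose, with a median of 0.82. Mrpl51 had 91.8, 115 and 112 CPM after imeglimin, against 53.2, 54.02 and 47.7 CPM in controls (1.04 ± 0.11, edgeR adjusted p = 0.000133). The nucleolar factors Rrp9 and Nolc1 had 25.97, 29.7 and 27.3 CPM after imeglimin, against 9.72, 11.01 and 12.3 CPM in controls and 62.4, 66.99 and 71.2 CPM after imeglimin, against 33.3, 36.3 and 32.4 CPM in controls. Both were tight within groups, with log2 fold changes of 1.33 ± 0.12 and 0.97 ± 0.09 (edgeR adjusted p = 4.25e-05 and 4.15e-05). The 86 cytosolic ribosomal protein genes had a median of 0.37, and their count of 48 higher was 11 without imeglimin 2, 27 without imeglimin 3, 19 without control 1 and 25 without control 3. Of 37 proteasome subunits 29 rose (19 without imeglimin 2), with a median of 0.45. Psmd12, of the proteasome cap, rose by 0.75 ± 0.10 (edgeR adjusted p = 0.000397). Of 10 genes of polyamine metabolism 6 rose, with a median of 0.49, among them Srm, the spermidine synthase, at 1.26 ± 0.15 and Odc1, the entry enzyme, at 0.91 ± 0.12 (edgeR adjusted p = 0.000165 and 0.000324).

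Genes of glucose handling changed in both directions. Hk2, which traps glucose as its phosphate, had 298, 302 and 389 CPM after imeglimin, against 97.9, 82.2 and 88.1 CPM in controls (1.88 ± 0.15, edgeR adjusted p = 1.9e-05). Pfkfb4, which sets the level of a glycolysis activator, rose by 1.07 ± 0.10 and the mutase Pgam1 by 0.85 ± 0.09 (edgeR adjusted p = 6.72e-05 and 0.000102). Of 20 glycolysis enzymes 12 rose and 1 fell, with a median of 0.35, and 7 rose without control 3. The 1 fall was not called without imeglimin 2 or 3 or control 1 or 3. Slc2a1, the widespread glucose transporter, had 227, 292 and 332 CPM after imeglimin, against 146, 159 and 164 CPM in controls (0.86 ± 0.15, edgeR adjusted p = 0.0017). The fructose transporter Slc2a5 had 4.49, 4.097 and 4.25 CPM after imeglimin, against 10.9, 13.96 and 12.4 CPM in controls (-1.53 ± 0.20, edgeR adjusted p = 0.000322). Slc2a1 was higher and Slc2a5 lower in each imeglimin library than in any control. Among 12 hexose transporters 1 rose and 3 fell, against 18.1% of all genes higher and 15.1% lower. Txnip, an arrestin that takes glucose transporters off the membrane and that glucose itself induces through MondoA, had 454, 377 and 441 CPM after imeglimin, against 1210, 785 and 1112 CPM in controls (-1.29 ± 0.16, edgeR adjusted p = 0.00028). Its relative Arrdc3 had 27.6, 26.9 and 27.3 CPM after imeglimin, against 83.1, 57.3 and 42.98 CPM in controls (-1.16 ± 0.20, edgeR adjusted p = 0.00164). Control 1 was the highest library for both arrestins, and all imeglimin libraries lay below all controls.

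The kinases that inactivate pyruvate dehydrogenase moved in opposite directions. Pdk4, which blocks entry of pyruvate into the citric acid cycle during fasting, had 130, 152 and 134 CPM after imeglimin, against 47.4, 18.1 and 25.3 CPM in controls (2.20 ± 0.29, edgeR adjusted p = 0.000326), whereas Pdk1, its hypoxia-induced relative, had 32.03, 36.9 and 35.3 CPM after imeglimin, against 66.95, 59.3 and 56.4 CPM in controls (-0.81 ± 0.12, edgeR adjusted p = 0.000746). Targets of the hypoxia-inducible factor divided too, with 6 of 19 higher and 5 lower (3 lower without imeglimin 3). The shares of all genes were 18.1% higher and 15.1% lower. The angiogenic factor Vegfa had 237, 276 and 247 CPM after imeglimin, against 82.4, 65.5 and 81.5 CPM in controls (1.73 ± 0.15, edgeR adjusted p = 4e-05). Ankrd37, a small ankyrin protein, had 1.82, 2.599 and 2.75 CPM after imeglimin, against 16.6, 18.7 and 15.6 CPM in controls (-2.83 ± 0.20, edgeR adjusted p = 1.32e-05), and Bnip3l, a receptor for mitophagy, had 46.5, 44.7 and 43.05 CPM after imeglimin, against 91.6, 79.5 and 88.6 CPM in controls (-0.95 ± 0.08, edgeR adjusted p = 4.25e-05). Each of these genes separated the groups in full, Vegfa upward and the other two downward.

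Single genes of lipid metabolism changed in both directions. Plin2, which coats lipid droplets, had 206, 218 and 268 CPM after imeglimin, against 82.8, 80.5 and 76.8 CPM in controls (1.53 ± 0.15, edgeR adjusted p = 7.51e-05). Dgat2, which makes triglyceride, had 158, 174 and 188 CPM after imeglimin, against 72.8, 61.8 and 61.9 CPM in controls (1.40 ± 0.13, edgeR adjusted p = 4.64e-05). Angptl4 and Angptl8, which restrain lipoprotein lipase, rose by 1.53 ± 0.19 and 2.87 ± 0.29 (edgeR adjusted p = 0.00026 and 7.8e-05). Acaca, which commits acetyl-CoA to fatty acid synthesis, had 51.3, 50.3 and 49.04 CPM after imeglimin, against 76.1, 80.4 and 76.2 CPM in controls (-0.63 ± 0.08, edgeR adjusted p = 0.000399). Plin2 and Dgat2 were far higher in each treated library than in any control, and Acaca was lower in each. Over whole lists, 4 of 19 genes of fatty acid synthesis rose and 5 fell (3 fell without imeglimin 2 or 3), and 2 of 23 of fatty acid oxidation and ketone synthesis rose (4 by DESeq2 or without imeglimin 1) and 4 fell, against 18.1% of all genes higher and 15.1% lower. Stard4, a cholesterol carrier, fell (log2 fold change -0.75 ± 0.09, edgeR adjusted p = 0.000236).

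Of 16 metallothionein, zinc and iron genes 6 rose and 3 fell, against 18.1% and 15.1% of all genes, with a median of 0.13. The metallothioneins Mt1 and Mt2, which bind zinc and copper, had 421, 620.1 and 514 CPM after imeglimin, against 113, 86.8 and 99.7 CPM in controls and 128, 182 and 127 CPM after imeglimin, against 38.6, 23.8 and 37.1 CPM in controls. Their log2 fold changes were 2.38 ± 0.15 and 2.13 ± 0.20 (edgeR adjusted p = 4.96e-06 and 6.26e-05), and imeglimin 2 was the highest library for both. Slc40a1 (ferroportin), the exporter of iron from cells, had 72.4, 66.01 and 82.3 CPM after imeglimin, against 360.3, 296 and 239 CPM in controls (-2.02 ± 0.20, edgeR adjusted p = 7.32e-05). Of 12 genes that glucocorticoids induce 7 rose, and the median of the list was 0.72. Mt2 and Pdk4, given above, are among these 7. Among 19 clock genes 4 rose and 5 fell, against 18.1% of all genes higher and 15.1% lower. The count of lower clock genes was 2 without imeglimin 2 or control 3, and 3 without imeglimin 3 or control 1. The clock repressors Cry1 and Per2 had 45.5, 60.02 and 61.2 CPM after imeglimin, against 16.7, 12.6 and 14.1 CPM in controls and 98.7, 93.3 and 118 CPM after imeglimin, against 37.9, 45.4 and 58.9 CPM in controls. Their log2 fold changes were 1.94 ± 0.14 and 1.12 ± 0.16 (edgeR adjusted p = 1.35e-05 and 0.000528), with all treated libraries above all controls. Bhlhe40, a repressor shared by the clock and the hypoxia response, rose by 1.48 ± 0.16 (edgeR adjusted p = 0.000135).

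Among cell cycle genes, of 26 DNA replication and G1/S genes 19 rose, with a median of 0.59, while of 24 mitosis and G2/M genes 2 rose and 6 fell (2 fell without imeglimin 1, imeglimin 3 or control 1, and 3 without control 2), with a median of -0.12. Mcm10, which readies the replication fork, had 27.2, 30.1 and 23.5 CPM after imeglimin, against 11.8, 10.5 and 7.52 CPM in controls (1.44 ± 0.16, edgeR adjusted p = 0.000139). The helicase subunit Mcm2 had 39.2, 43.9 and 47.05 CPM after imeglimin, against 26.03, 28.3 and 20.1 CPM in controls (0.81 ± 0.13, edgeR adjusted p = 0.000874). Cenpf, a kinetochore protein, had 15.98, 16.6 and 16.6 CPM after imeglimin, against 31.5, 28.6 and 23.9 CPM in controls (-0.77 ± 0.17, edgeR adjusted p = 0.00478). The first 2 were higher and Cenpf lower in every imeglimin library. Cdkn2b, an inhibitor of the G1 kinases, rose by 1.15 ± 0.19 and their partner Ccnd2 by 0.59 ± 0.10 (edgeR adjusted p = 0.00114 and 0.00112). The crypt stem cell receptor Lgr5 had 6.68, 6.15 and 5.86 CPM after imeglimin, against 12.9, 8.96 and 9.45 CPM in controls (-0.75 ± 0.17, edgeR adjusted p = 0.00577). Its list of 18 intestinal stem cell and Wnt target genes was divided, with 3 higher and 5 lower and a median of -0.10. Without imeglimin 2 these counts were 1 and 1, and without imeglimin 3 they were 0 and 2. Of all genes 18.1% rose and 15.1% fell. Of 16 p53 targets 8 rose and 6 fell: the nuclease Aen rose by 0.93 ± 0.09, and Sesn1 and Trp53inp1 fell, with log2 fold changes of -1.18 ± 0.10 and -1.45 ± 0.11 (edgeR adjusted p = 5.93e-05, 4.11e-05 and 1.54e-05).

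The largest falls did not gather in 1 list. Lrat, which stores vitamin A as an ester, had 3.45, 2.45 and 1.72 CPM after imeglimin, against 20.6, 19.6 and 22.6 CPM in controls (-3.04 ± 0.22, edgeR adjusted p = 1.54e-05). Grin3a, a subunit of glutamate receptors, had 5.82, 3.61 and 3.52 CPM after imeglimin, against 29.3, 27.4 and 29.9 CPM in controls (-2.74 ± 0.23, edgeR adjusted p = 3.55e-05). Edn1, the vessel-constricting peptide endothelin 1, had 3.55, 2.75 and 1.96 CPM after imeglimin, against 15.7, 24.4 and 10.8 CPM in controls (-2.62 ± 0.34, edgeR adjusted p = 0.000325), and its paralog Edn2 had 4.702, 3.09 and 3.98 CPM after imeglimin, against 14.7, 14.7 and 26.3 CPM in controls (-2.24 ± 0.32, edgeR adjusted p = 0.000524). The controls of both endothelins differed among themselves, control 2 being highest for Edn1 and control 3 for Edn2, and none reached down to the treated libraries. Crebrf, a regulator of the unfolded protein response and of energy balance, had 21.5, 16.3 and 16.7 CPM after imeglimin, against 95.5, 58.8 and 70.3 CPM in controls (-2.04 ± 0.20, edgeR adjusted p = 7.03e-05). Klhl24, an adaptor that marks keratins for destruction, had 25.03, 19.1 and 16.6 CPM after imeglimin, against 99.9, 73.6 and 80.4 CPM in controls (-2.06 ± 0.16, edgeR adjusted p = 1.9e-05). Gcnt1, which branches the sugar chains of mucins, had 8.603, 8.29 and 5.998 CPM after imeglimin, against 40.6, 25.9 and 26.8 CPM in controls (-2.03 ± 0.21, edgeR adjusted p = 8.53e-05). The epithelial P450 Cyp2s1 had 56.2, 56.7 and 50.3 CPM after imeglimin, against 141, 142 and 144 CPM in controls (-1.39 ± 0.08, edgeR adjusted p = 4.56e-06), and was tight in both groups. Hnf4g, a factor of enterocyte genes, fell (log2 fold change -1.57 ± 0.20, edgeR adjusted p = 0.00029).

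Some large rises also lay outside the lists. Trim15, a ubiquitin ligase that sits at focal adhesions, had 75.96, 77.8 and 78.1 CPM after imeglimin, against 11.6, 10.1 and 9.19 CPM in controls (2.91 ± 0.12, edgeR adjusted p = 9.59e-07). C2cd4b, a C2 domain protein, had 18.2, 17.1 and 20.1 CPM after imeglimin, against 2.34, 2.65 and 2.68 CPM in controls (2.85 ± 0.20, edgeR adjusted p = 1.17e-05). Crybb3, a crystallin of the eye lens, had 29.9, 49.5 and 25.2 CPM after imeglimin, against 1.82, 3.43 and 7.16 CPM in controls (3.06 ± 0.42, edgeR adjusted p = 0.000456). Gdf9, a growth factor of the oocyte, had 3.53, 9.23 and 3.299 CPM after imeglimin, against 0.485, 0.271 and 0.363 CPM in controls (3.83 ± 0.51, edgeR adjusted p = 0.000385). Trim15 and C2cd4b were tight in both groups, whereas Gdf9 was highest in imeglimin 2 and low in all controls.

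Some genes of specialised epithelial functions changed. The gut hormone Pyy, which slows intestinal transit and curbs appetite, had 47.3, 59.96 and 62.4 CPM after imeglimin, against 30.02, 31.2 and 28.7 CPM in controls (0.92 ± 0.12, edgeR adjusted p = 0.000394). Of 16 gut hormone genes 3 rose and 1 fell, near the 18.1% of all genes higher and below the 15.1% lower. Of 13 enteroendocrine markers 1 rose (2 without imeglimin 1) and 1 fell. Proglucagon (Gcg) had 69.8, 109 and 97.1 CPM after imeglimin, against 81.04, 66.5 and 71.8 CPM in controls, the groups overlapped, and 0.33 ± 0.15 (edgeR adjusted p = 0.114) did not pass, except without imeglimin 1 (edgeR adjusted p = 0.0107). Spdef, a factor of goblet cell maturation, had 182, 202 and 214 CPM after imeglimin, against 78.3, 120.4 and 110 CPM in controls (0.95 ± 0.14, edgeR adjusted p = 0.000629). Slc26a3, the chloride-bicarbonate exchanger of the colon surface, had 167, 137 and 173 CPM after imeglimin, against 288, 263 and 369.8 CPM in controls (-0.95 ± 0.20, edgeR adjusted p = 0.00443). Cldn8, a sealing claudin of the distal gut, rose by 1.01 ± 0.10 (edgeR adjusted p = 7.8e-05), and Tjp1 (ZO-1), the scaffold of tight junctions, fell (log2 fold change -0.76 ± 0.13, edgeR adjusted p = 0.0015). In bulk samples fewer cells of a type and less RNA per cell cannot be told apart.

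Among marker lists, which are read against 18.1% of all genes higher and 15.1% lower, absorptive colonocyte markers had 3 of 14 higher (1 with the replicate block, with no filter, or without imeglimin 2 or 3 or control 1 or 2) and 1 lower, and goblet cell markers 3 of 16 higher (1 without imeglimin 3 or control 3) and 1 lower, both near the share of all genes. Of 19 smooth muscle markers 0 passed by edgeR and 0 by DESeq2, with 1 lower at an unadjusted p under 0.05, although 2 were lower with the replicate block, in the fit of only the 2 groups or without metformin 2, and their sums of 6871 to 10160 CPM after imeglimin and 7326 to 9621 CPM in controls overlapped. Small intestine markers had 3 of 11 lower, with sums of 418 to 510 CPM after imeglimin against 683 to 1061 CPM in controls, and sucrase-isomaltase (Sis) had 28.4, 27.9 and 32.7 CPM after imeglimin, against 95.7, 85.2 and 66.8 CPM in controls. Lct and Apoc3 of that list had too few reads to be tested. Paneth cell markers, of cells the colon normally lacks, summed to 6.15 to 8.93 CPM after imeglimin and to 26.5, 8.99 and 9.21 CPM in controls 1, 2 and 3, and their count of 3 of 6 lower was 1 without control 1 or imeglimin 3. Red blood cell markers summed to 27.7 to 35.1 CPM after imeglimin against 16.8 to 22.1 CPM in controls, with 3 of 5 higher. Fibroblast markers had 3 of 20 lower, with 5 by DESeq2, 7 in the fit of only the 2 groups or without metformin 2, and 0 by edgeR without imeglimin 2 or 3 or any 1 control. Endothelial markers had 4 of 17 lower, with 2 under the replicate block or without imeglimin 2 or 3 or control 1 or 3. The part of such cell fractions in the changes above was not tested.

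Metformin is an open-chain biguanide and imeglimin carries a related skeleton closed into a tetrahydrotriazine ring. The compounds were compared at the same dose of 600 mg/kg and time of 6 h in 1 pair of groups. Between them 118 of 18294 genes differed (0.645%), 87 higher (0.476%) and 31 lower (0.169%) with imeglimin, and 3009 had an unadjusted p under 0.05. DESeq2 called 733, and edgeR called 19 with the replicate block. The count rested on single libraries: it was 0 without imeglimin 2 (where 2052 had an unadjusted p under 0.05), 9 without imeglimin 3, 11 without imeglimin 1 or metformin 3, 38 without control 2, 69 without control 1 and 72 without control 3. Metformin 2 stood apart in markers of the gut wall. Its smooth muscle markers summed to 2726 CPM, against 6532 to 10160 CPM in the other 8 libraries, and its enteric neuron and glia markers to 83.03 CPM, against 153 to 213 CPM. Without metformin 2 edgeR called 156 genes between the compounds, and its part in single genes was not tested beyond leaving it out. The 95% interval of the difference lay within 1 log2 unit of 0 on both sides for 74.4% of genes. The differences below are imeglimin minus metformin.

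Higher with imeglimin were several genes that had also risen against control. Gdf15 had 71.02, 106 and 81.05 CPM after imeglimin, against 22.4, 26.4 and 14.6 CPM after metformin, a difference of 2.02 (edgeR adjusted p = 0.00979, 95% interval 1.51 to 2.54). Mx1 had 23.1, 26.3 and 19.6 CPM after imeglimin, against 9.53, 7.06 and 8.34 CPM after metformin, a difference of 1.47 (edgeR adjusted p = 0.0097, 95% interval 1.12 to 1.81). Areg had 148, 219 and 203 CPM after imeglimin, against 72.2, 91.5 and 61.7 CPM after metformin, a difference of 1.34 (edgeR adjusted p = 0.0343, 95% interval 0.85 to 1.82), the 1 called gene of 7 EGF receptor ligands. In each the imeglimin libraries lay above all metformin libraries. Phlda1 had 124, 165 and 141 CPM after imeglimin, against 48.3, 45.7 and 44.4 CPM after metformin, a difference of 1.63 (edgeR adjusted p = 0.0374, 95% interval 1.01 to 2.25). Dusp6 had 93.03, 80.6 and 102 CPM after imeglimin, against 42.3, 43.5 and 51.4 CPM after metformin, a difference of 1.00 (edgeR adjusted p = 0.0156, 95% interval 0.73 to 1.28). Trib1, a pseudokinase relative of Trib3, had 112, 125 and 109 CPM after imeglimin, against 63.8, 58.2 and 64.2 CPM after metformin, a difference of 0.89 (edgeR adjusted p = 0.00979, 95% interval 0.66 to 1.12). In these 3 genes every imeglimin library was above every metformin library. C2cd4b differed by 1.42 (edgeR adjusted p = 0.0169, 95% interval 1.02 to 1.83) and the amino acid transporter chain Slc3a2 by 0.71 (edgeR adjusted p = 0.0488, 95% interval 0.41 to 1.01). Mt1 had 421, 620.1 and 514 CPM after imeglimin, against 267, 275 and 268 CPM after metformin, a difference of 0.94 (edgeR adjusted p = 0.0237, 95% interval 0.63 to 1.25), and the fork factor Mcm10 differed by 1.01 (edgeR adjusted p = 0.0298, 95% interval 0.66 to 1.36). Col11a2, a fibrillar collagen, differed by 1.95 (edgeR adjusted p = 0.0237, 95% interval 1.31 to 2.60), and Mfsd2b, a sphingosine phosphate transporter, by 1.498 (edgeR adjusted p = 0.0415, 95% interval 0.91 to 2.08). With the replicate block edgeR gave an adjusted p of 0.0701 for Areg, 0.0675 for Phlda1 and Mt1, 0.1 for Slc3a2, 0.0567 for Mcm10, 0.0641 for Col11a2 and 0.0971 for Mfsd2b, so that these calls were lost. Gdf15, Mx1 and Trib1 missed the threshold only without imeglimin 2 (edgeR adjusted p = 0.0537 for each), whereas Dusp6 and C2cd4b also missed it without imeglimin 1 (0.054 for each) or imeglimin 3 (0.0755 and 0.0761). The other calls of this paragraph were lost in 4 to 11 of the 14 other settings run, Slc3a2 in the most.

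Some genes were lower with imeglimin than with metformin. Tfrc, the transferrin receptor that takes up iron, had 157, 116 and 142 CPM after imeglimin, against 220.3, 224 and 278 CPM after metformin, a difference of -0.80 (edgeR adjusted p = 0.0315, 95% interval -1.08 to -0.52). The oxidase Nox1, which makes superoxide at the colon surface, had 3.42, 2.14 and 2.999 CPM after imeglimin, against 13.4, 6.38 and 9.39 CPM after metformin, a difference of -1.77 (edgeR adjusted p = 0.0415, 95% interval -2.46 to -1.07). Acta1, the actin of skeletal muscle, had 18.3, 24.6 and 21.6 CPM after imeglimin, against 183, 37.5 and 123 CPM after metformin, a difference of -2.42 (edgeR adjusted p = 0.0449, 95% interval -3.42 to -1.42). The metformin libraries of Acta1 and Nox1 were spread widely, and none overlapped an imeglimin library. Pof1b, of epithelial junctions, and Uevld differed by -0.99 (edgeR adjusted p = 0.0343, 95% interval -1.36 to -0.62) and -1.01 (edgeR adjusted p = 0.0466, 95% interval -1.44 to -0.59). With the replicate block edgeR gave an adjusted p of 0.0515 for Tfrc, 0.0641 for Nox1, 0.118 for Acta1 and 0.108 for Uevld, so that only Pof1b of these passed. With only the 2 groups compared none of the 5 passed (edgeR adjusted p = 0.0757 for Tfrc, 0.0722 for Nox1, 0.0907 for Acta1, 0.0745 for Pof1b and 0.0607 for Uevld), and each was lost in 8 to 10 of the 14 other settings run. Metformin 2 was the lowest metformin library for Acta1 and Nox1, and both passed without it, while Uevld did not (edgeR adjusted p = 0.067). Each call named here between the compounds, higher or lower, was lost without imeglimin 2. Lower than metformin did not always mean lower than control. The fold changes of Tfrc and Acta1 against control were above 0, and those of Nox1, Pof1b and Uevld were below 0. Acta1 was not called against control (edgeR adjusted p = 0.0529), except without metformin 1 or 2 or with only the 2 groups compared.

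Of other genes given against control, Stip1, Dnaja1, Spry2 and Mt2 were called higher with imeglimin than metformin (edgeR adjusted p = 0.0343, 0.0488, 0.0343 and 0.0495). Of the 14 other settings run, these calls held in 5, 2, 8 and 3. Txnip was called lower with imeglimin than metformin, but edgeR called 0 genes lower without imeglimin 2 or without imeglimin 3, so this call was lost there. Of the 118 genes called between the compounds 105 were also called against control, out of 6085, so most genes of the response did not pass between the compounds. Against the same controls, 19 of 20 cytosolic tRNA synthetases, 27 of 28 nucleolar factors and 51 of 78 mitochondrial ribosomal proteins were higher after metformin. Fewer were higher than after imeglimin among nuclear complex I genes (13 of 36) and cytosolic ribosomal proteins (2 of 86). No member of these lists was called between the compounds by edgeR. Atf4 had 342, 506 and 438 CPM after imeglimin, against 339.8, 339 and 295 CPM after metformin, a difference of 0.40 (edgeR adjusted p = 0.198, 95% interval 0.10 to 0.70) with groups that did not overlap. Hspa1a differed by 1.49 (edgeR adjusted p = 0.131, 95% interval 0.60 to 2.38), Vegfa by 0.46 (edgeR adjusted p = 0.174, 95% interval 0.14 to 0.78) and Pyy by 0.48 (edgeR adjusted p = 0.108, 95% interval 0.21 to 0.75), and in each the imeglimin libraries lay above the metformin libraries without passing. Vegfa and Pyy passed with DESeq2 (adjusted p = 0.0374 and 0.0104), and Hspa1a passed without metformin 1 (edgeR adjusted p = 0.0471). The difference was -0.07 (-0.29 to 0.16) for Erbb2, -0.28 (-0.71 to 0.15) for Slc40a1, -0.24 (-0.87 to 0.39) for Slc7a11 and -0.34 (-0.94 to 0.26) for Pdk4, with the 95% interval in parentheses. These 4 intervals held 0, and that of Erbb2 was the narrowest.

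**Figure D5:**
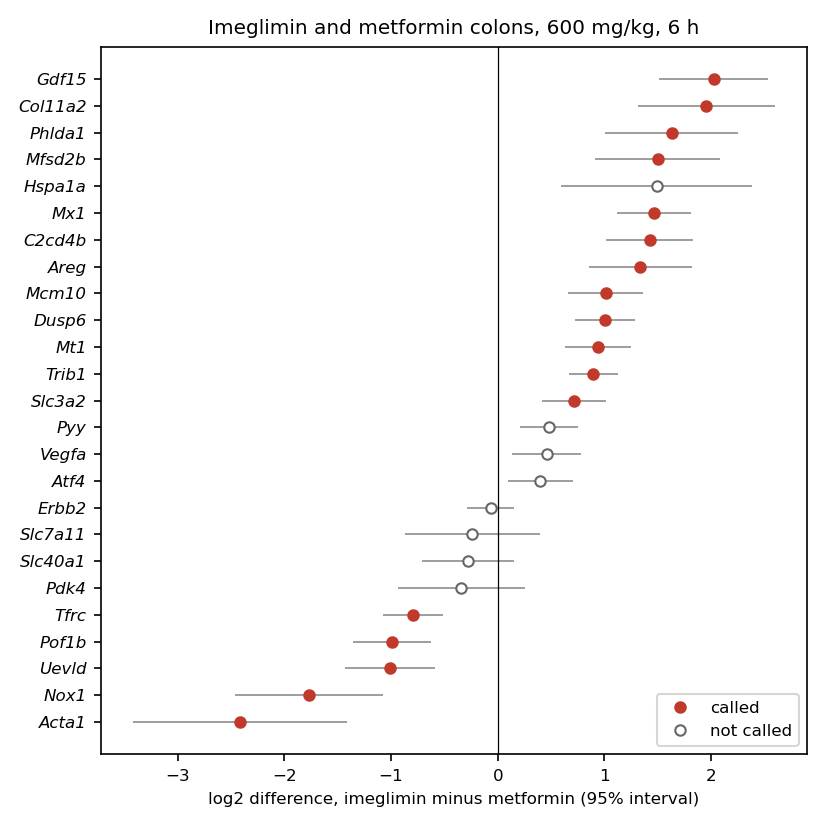
Difference between imeglimin and metformin colons (log2, points with 95% intervals, 3 libraries a group) for the genes given with an interval in that comparison, filled where called by edgeR and open where not, with a line at 0. Gdf15 (2.02), Col11a2 (1.95) and Phlda1 (1.63) lie to the right, Acta1 (-2.42) and Nox1 (-1.77) to the left, and the interval of Erbb2 holds 0.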

How the data were processed

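The 9 acute colon libraries were analysed from the raw counts that the authors deposited, whole numbers for 45777 gene symbols. Per the labels' protocols, RNeasy columns and the TruSeq Stranded mRNA kit were used. HISAT2, StringTie, Trimmomatic and FastQC and the builds mm10 and GRCm39 are named, without roles, per the submitters' processing notes. The use of strand is not stated in the sources used here. Promoters came from RefSeq (GRCm38.p6) and gene overlaps from GENCODE M21.

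The main test was edgeR 4.0.16 (quasi-likelihood, with limma 3.58.1, in R 4.3.3), with TMM scaling, filterByExpr, 3 libraries each of imeglimin, metformin and control in 1 fit, and Benjamini-Hochberg adjustment over 18294 genes at a threshold of 0.05. CPM values and 95% intervals were computed from that fit. Alternatives were RLE scaling, DESeq2 1.42.0, no filter beyond 1 read, only the 2 groups compared, a replicate block, and each library left out in turn. Depth was 31606797 to 38795175 counts, and counts without molecular identifiers are not independent molecules. Replicates differed beyond counting error in all pairs (chi-square of 14.2 to 56.2 per gene), so each library is 1 sample. On simulated counts for imeglimin against control (18294 genes), 100 genes were changed 2-fold and 100 were changed 4-fold. There edgeR called 60% of genes changed 2-fold, 78% of those changed 4-fold and 11 unchanged genes. Far fewer genes changed in the simulation than the 33.3% called in the data, so these shares do not give the recovery in the data.

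The label of each library gives a batch equal to its replicate number, and in that sense the numbers pair the libraries. Libraries with the same number had deviations from the group mean that correlated at -0.00563 on average, against 0.00266 for different numbers, and 1 of 9 pairs lay over 0.1.

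Named genes were called, averaged 5 CPM or more in either group, had groups that did not overlap, and were no predicted model or antigen receptor segment. From these the 15 largest changes each way, the 3 smallest p of each of 76 lists (58 of pathways, 18 of markers) and the 5 largest differences each way from metformin could be named, as could a fixed set of genes and all members of lists of up to 8 genes. Exceptions are stated. Members and lists were chosen with earlier results of these data known.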

Additional observations from a re-analysis of the deposited data

How the results depend on the processing

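Against control, 6085 genes passed, and the count stayed within 1.5 times that number in every setting except without imeglimin 2 (4004). Leaving out 1 library gave 4004 to 6599 genes, 2285 to 3451 higher and 1719 to 3148 lower, the lower count being 1719 without imeglimin 2 and 1838 without imeglimin 3. DESeq2 called 6480 genes, 5951 of them shared with edgeR. The replicate block called 5361, 5238 of them shared, and of the genes given with values against control it changed only the call of Eif2ak2. The comparison with metformin depended more on the setting. Against 118 genes (87 higher and 31 lower), DESeq2 called 733 (431 and 302), the fit with no filter beyond 1 read 74 (54 and 20), the fit of only the 2 groups 28 (24 and 4), and the replicate block 19 (13 and 6). Leaving out 1 library gave 0 to 156 genes, 0 to 115 higher and 0 to 88 lower, the highest lower count without metformin 1. The cause of these shifts was not tested. The median of all genes moved by under 0.1 log2 units in each setting run. Genes under 1 CPM in a group, such as Epgn, rest on few reads. With 3 libraries a group, the 95% interval of a difference between the compounds reached a median of 0.358 log2 units to either side.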
